A study of Mus musculus with 6 samples.

Results

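The genes described here encode the nuclear share of the respiratory chain and the ATP synthase, together with the electron carrier cytochrome c. They were taken by name from the deposited count table, as protein-coding genes whose symbol starts with Nduf, Uqcr, Cox4 to Cox8 or Atp5, together with Sdha, Sdhb, Sdhc, Sdhd, Cyc1 and Cycs. This gave 91 of 21017 genes. They fell into 7 core subunits, 29 accessory subunits and 7 assembly factors of complex I, 4 genes of complex II, 9 of complex III, cytochrome c, 17 of complex IV, 15 of complex V and 2 other genes (Atp5s and Atp5sl) that carry an ATP synthase name without being ATP synthase subunits. The RNA came from lung ILC2s (group 2 innate lymphoid cells), lymphocytes that make type 2 cytokines and have no antigen receptor of their own. All cells came from lungs of 8-week-old C57BL/6J mice of the genotype labelled IL-10GFP, a reporter by which cells that make IL-10 are sorted. The mice had been given IL-33 into the nose on 3 occasions (0.5 µg per mouse), and the sorted ILC2s then spent 48 h in culture with 10 ng/mL each of the cytokines IL-4, IL-7 and IL-2. A second sort gave the 2 groups compared, IL-10-producing and IL-10-negative ILC2s, with 3 libraries each. Both groups thus share genotype, age, IL-33 exposure and culture, and no untreated cells were analysed here. Whether the libraries of a group stem from different mice or culture wells is not in the labels, so every p-value here reflects variation among these libraries alone, and that variation may be technical.

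The respiratory chain sits in the inner mitochondrial membrane. Complex I takes electrons from NADH and complex II from succinate, ubiquinone carries them to complex III, cytochrome c carries them on to complex IV, and complex IV passes them to oxygen. Complexes I, III and IV pump protons, and the ATP synthase (complex V) uses the proton gradient to make ATP. Most subunits are encoded in the nucleus and imported, while a small set is encoded by mitochondrial DNA. Lymphocytes draw on this system and on glycolysis in proportions that shift with activation.

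Library totals ran from 47012941 to 69511433 counts, and levels are given as CPM, counts scaled to a common library total with TMM factors, which correct for library composition. Il10, on whose reporter the cells were sorted, stood at 848 ± 7.78 CPM where IL-10 was produced, against 13.5 ± 0.608 CPM (SD, n = 3), which checks the labels. All 15 ILC2 markers looked up had counts in both groups. Of these, 5 were higher in IL-10-producing cells, among them Arg1 (903 against 573 CPM), Klrg1 (476 against 309 CPM) and Il2ra (5835 against 4206 CPM). Another 8 were lower, among them Il1rl1, the IL-33 receptor (3299 against 4069 CPM), and Gata3 (708 against 832 CPM). The 12 T cell markers summed to 115 to 118 CPM in the IL-10-producing and 174 to 180 CPM in the IL-10-negative libraries, and 11 of them passed the test as lower and 1 as higher. Their defining genes Cd3e and Cd8a stood at 1.25 against 8.19 CPM and at 0.0594 against 15.3 CPM. The 13 markers of mast cells, basophils and neutrophils summed to 14.97 to 16.49 against 104 to 110 CPM, and all 12 that were tested were lower. The sums of the other lists differed less: B cells (5 tested, 4 lower, 16.6 against 17.3 CPM summed), macrophages and dendritic cells (7 tested, 1 higher, 3 lower, 6.93 against 8.68 CPM), NK cells (3 tested, 1 higher, 2 lower, 6.36 against 9.5 CPM) and structural lung cells (3 tested, 1 higher, 1 lower, 121 against 106 CPM). Only 1 NK cell gene was at 0 in all libraries of a group, the IL-10-producing one. These markers move with the groups compared in every result below, and their part in those results was not tested. In bulk RNA, fewer cells of a type and less RNA per cell cannot be told apart.

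Nuclear respiratory genes are known for a few short promoter motifs, so 4 promoters are shown for the members where a reader may want to look for them. The first pair belongs to Sdhd and Cox6a1, which rose and hold a match. Ndufa6 fell and also holds a match, and Ndufa4, the member with the largest rise, holds none. The sequences are RefSeq's for build GRCm38.p6, read 5′ to 3′ towards the gene, and end before the transcribed part. Capitals mark matches to the core motifs GCATGCGC (NRF1) and CCGGAAG (ETS factors such as GABP), on either strand.
Sdhd (chr9:50603850-50604099, minus strand): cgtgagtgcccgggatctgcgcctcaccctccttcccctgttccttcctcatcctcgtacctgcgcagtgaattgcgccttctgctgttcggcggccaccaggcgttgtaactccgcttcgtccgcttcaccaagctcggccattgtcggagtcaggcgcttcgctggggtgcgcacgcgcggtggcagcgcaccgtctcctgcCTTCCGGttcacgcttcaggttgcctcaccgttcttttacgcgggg
Cox6a1 (chr5:115348982-115349208, minus strand): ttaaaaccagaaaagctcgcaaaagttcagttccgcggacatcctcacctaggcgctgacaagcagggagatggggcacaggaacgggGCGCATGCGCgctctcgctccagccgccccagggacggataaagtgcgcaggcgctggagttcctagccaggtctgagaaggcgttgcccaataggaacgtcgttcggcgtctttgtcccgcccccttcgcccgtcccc
Ndufa6 (chr15:82354323-82354541, minus strand): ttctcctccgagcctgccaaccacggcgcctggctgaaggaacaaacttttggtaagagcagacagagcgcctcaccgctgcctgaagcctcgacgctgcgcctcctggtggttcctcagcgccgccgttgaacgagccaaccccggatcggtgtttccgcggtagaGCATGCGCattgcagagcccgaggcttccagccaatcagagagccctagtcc
Ndufa4 (chr6:11907498-11907700, minus strand): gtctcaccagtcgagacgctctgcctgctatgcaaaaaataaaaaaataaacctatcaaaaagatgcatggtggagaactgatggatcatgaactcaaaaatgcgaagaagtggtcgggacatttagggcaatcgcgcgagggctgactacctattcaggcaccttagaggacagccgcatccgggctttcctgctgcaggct

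In Cox6a1 the NRF1 core reads on both strands of the same stretch, so its 2 matches overlap. The Cox6a1 window searched below also holds an ETS core, which does not lie within the printed bases. Of the 91 members, 75 had a promoter window in the RefSeq table (250 bases before to 50 after the start), and a further motif, AAGATGGCG (YY1), was searched in them too. The NRF1 core was present in 13 of the 75 (17.3%), in 3.05% of the 27025 genes with a window and in 7.24% of the 5526 of those genes with a mean of at least 20 CPM. For the YY1 core the shares were 10.7% of members, 1.64% of all and 4.69% of the expressed genes. The ETS core was in 22.7% of members, 9.93% of all and 24.6% of the expressed genes. At least 1 of the 3 motifs was found in 32 members (42.7%, against 13.6% and 33.1%). Among members that changed between the groups and had a window, 4 of 14 that rose and 2 of 7 that fell held at least 1. A match is a run of letters, not a site shown to be bound.

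Most members differed little between the groups. Of the 91, 89 were tested with edgeR's quasi-likelihood test on all 16654 genes that passed the filter on low counts, with a Benjamini-Hochberg threshold of 0.05. A total of 17 members rose in IL-10-producing cells (19.1%) and 8 fell (8.99%). Over all tested genes 35.7% changed, 17.1% higher and 18.6% lower, so the share of members that rose was near that of all genes and the share that fell was smaller. Respiratory genes are abundant, and among the 7449 genes with a mean of at least 20 CPM, 28.9% rose and 22.8% fell, against 23% and 9.46% of the 74 members at that level. The libraries of the groups did not overlap in 27 members that were higher (30.3%, against 21.7% of all tested genes) and in 6 that were lower (6.74%, against 23.5%). The median log2 fold change (IL-10-producing over IL-10-negative) was 0.03 over members, -0.004 over all tested genes and 0.01 over those at 20 CPM or more. All tested members but Cox6a2 had log2 fold changes within ±0.25. Changed members had a median absolute log2 fold change of 0.13, against 0.22 for all changed genes. These counts move with the scaling. With library size only, 11 members rose and 10 fell, and after correcting for the GC content and length of transcripts 12 rose and 13 fell. Without IL-10-producing replicate 2, 22 rose and 5 fell, and without IL-10-negative replicate 3, 15 rose and 5 fell.

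**Figure D1:**
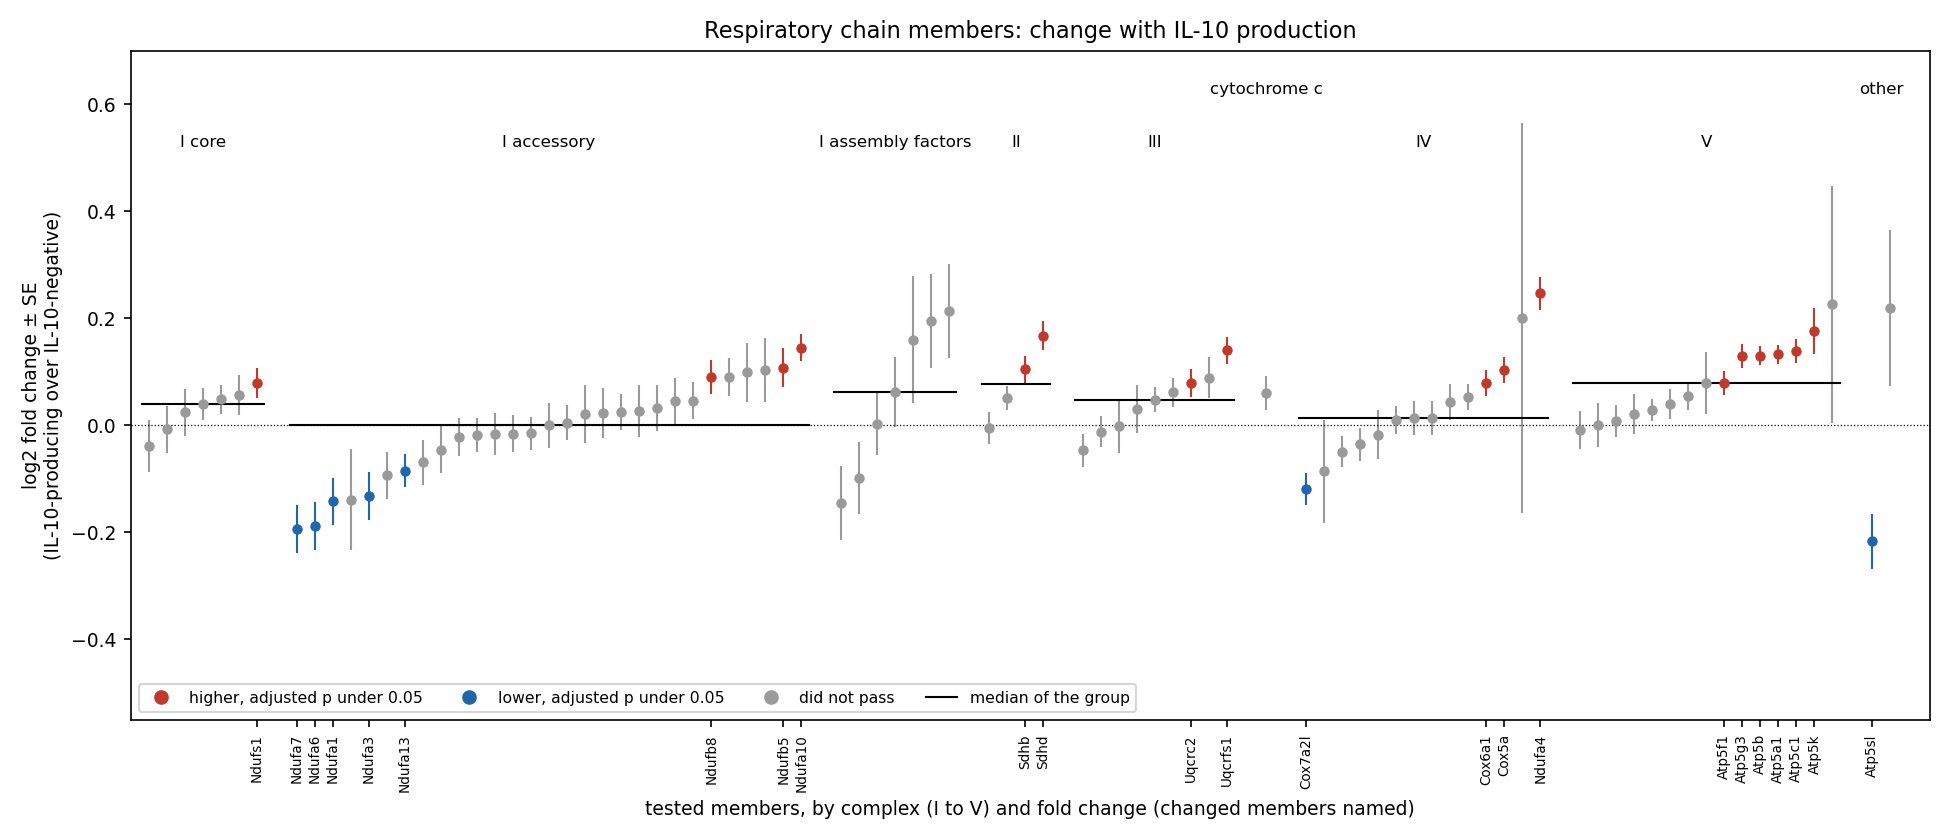
Log2 fold change of 88 tested members (vertical axis, IL-10-producing over IL-10-negative, point ± SE from edgeR), ordered within each complex and named where the member changed, with the group median as a black line where a group has more than 2 members. Points of complex V lie mostly above 0 (median 0.08), those of the complex I accessory subunits lie on both sides of it (median -0.0001), and Cox6a2 (-1.88) is left out because it lies below the axis.

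By complex, the calls were as follows, beside 17.1% higher and 18.6% lower among all tested genes. Among tested genes with a mean of at least 20 CPM the shares were 28.9% and 22.8%. Complex V had 6 of 15 members higher and none lower, complex II 2 of 4 higher and none lower, complex III 2 of 9 higher and none lower. Complex I had 4 of its 36 subunits higher and 5 lower, and complex IV had 3 higher and 2 lower of 15 tested. With the GC and length correction, complex III had 1 higher and 1 lower, complex IV 1 higher and 4 lower, and complex V 5 higher and 1 lower. Whether the complexes differ from each other was not tested. The summed CPM over all members was 7761, 7589 and 7789 in the IL-10-producing and 7417, 7357 and 7393 in the IL-10-negative libraries. The groups did not overlap, and the means differed by 4.38%. Producing replicate 2 had the lowest sum of its group, for all members and for complexes III, IV and V and the accessory subunits of complex I.

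**Figure D2:**
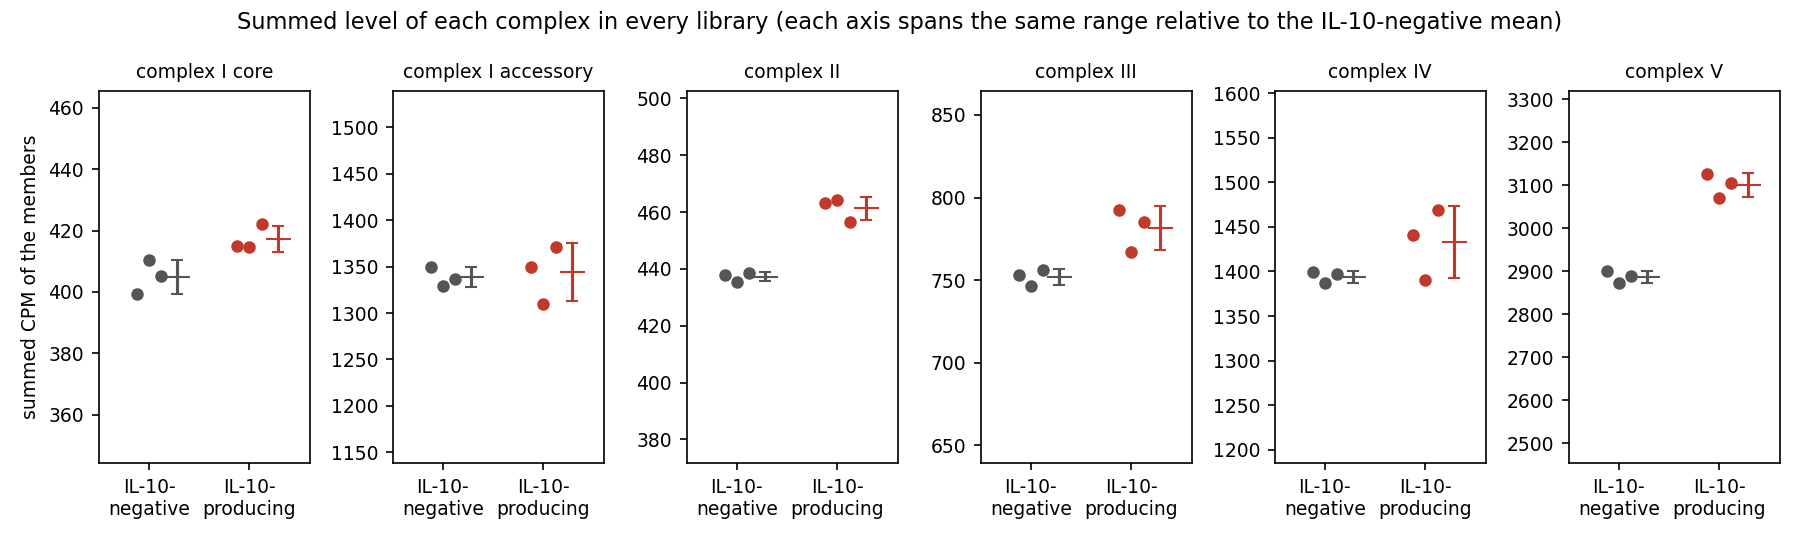
Summed CPM of the members of 6 gene groups in every library (points), with the mean ± SD of each group of 3 libraries beside them; each vertical axis spans the same relative range and does not start at 0. The libraries of the groups are apart for complex V (3070 to 3125 against 2873 to 2900), complex II, complex III and the complex I core, and overlap for the complex I accessory subunits and complex IV.

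Complex V carried most of the difference in summed level. Its sum was 3125, 3070 and 3104 CPM in the producing and 2900, 2873 and 2888 CPM in the negative libraries, 7.36% higher in the former, and 14 of 15 members had a positive log2 fold change. Most of that sum came from the catalytic head, in which the alpha and beta subunits (Atp5a1 and Atp5b) form the ring that makes ATP and the gamma subunit (Atp5c1) is the shaft that turns inside it. Atp5b (ENSMUSG00000025393.12, chromosome 10, 128083273 to 128090391, mm10) was the member with the most counts, with 1065, 1055 and 1038 CPM in the producing and 974, 954 and 958 CPM in the negative libraries. All producing libraries were above all negative ones, and the difference was 1.10-fold (log2 fold change 0.13, SE 0.017, edgeR adjusted p = 8.57e-07). Atp5a1 (chromosome 18, 77773729 to 77782869) stood at 641, 645 and 638 against 582, 584 and 589 CPM, again with no overlap (log2 fold change 0.13, SE 0.0173, edgeR adjusted p = 8.37e-07). Atp5c1 (chromosome 2, 10056016 to 10080510) stood at 225, 214 and 221 against 201, 200 and 198 CPM (log2 fold change 0.14, edgeR adjusted p = 1.73e-05). The alpha, beta and gamma genes thus rose by nearly the same proportion. The other head genes, Atp5d (198 ± 0.587 against 194 ± 0.494 CPM, log2 fold change 0.03) and Atp5e (103 ± 7.13 against 104 ± 2.33 CPM), which encode delta and epsilon of the central stalk, did not pass the test.

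The membrane part of the ATP synthase holds a ring of c subunits, which turns as protons pass. In the mouse, 3 genes (Atp5g1, Atp5g2 and Atp5g3) encode the same mature c subunit with different import sequences. Atp5g3 supplied most of the c subunit counts and was the member of this set that rose, from 176, 175 and 174 to 194, 194 and 186 CPM with no overlap (log2 fold change 0.13, SE 0.0225, edgeR adjusted p = 4.79e-05). Atp5g1 stood at 14.9 ± 0.208 against 14.1 ± 0.38 CPM (log2 fold change 0.08, edgeR adjusted p = 0.328), and Atp5g2 at 1.23 ± 0.243 against 1.06 ± 0.136 CPM (edgeR adjusted p = 0.475). The wider SE of the low genes (0.0588 and 0.222) includes differences as large as that of Atp5g3, so these data do not show that the c subunit genes act differently. Atp5k, the small e subunit of the membrane part, rose from 34.7, 33.8 and 34.0 to 38.0, 37.0 and 41.0 CPM (log2 fold change 0.18, edgeR adjusted p = 0.002). That call was lost with the GC and length correction (adjusted p up to 0.127). Atp5f1, the b subunit of the peripheral stalk, rose 1.06-fold, from 190 ± 2.83 to 201 ± 4.93 CPM (edgeR adjusted p = 0.00793), and did not pass with library size only (adjusted p = 0.113). The remaining members, Atp5h, Atp5j, Atp5j2, Atp5l and Atp5o, of the stalk and membrane part, had log2 fold changes between 0.0004 (Atp5l) and 0.05 (Atp5o).

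**Figure D3:**
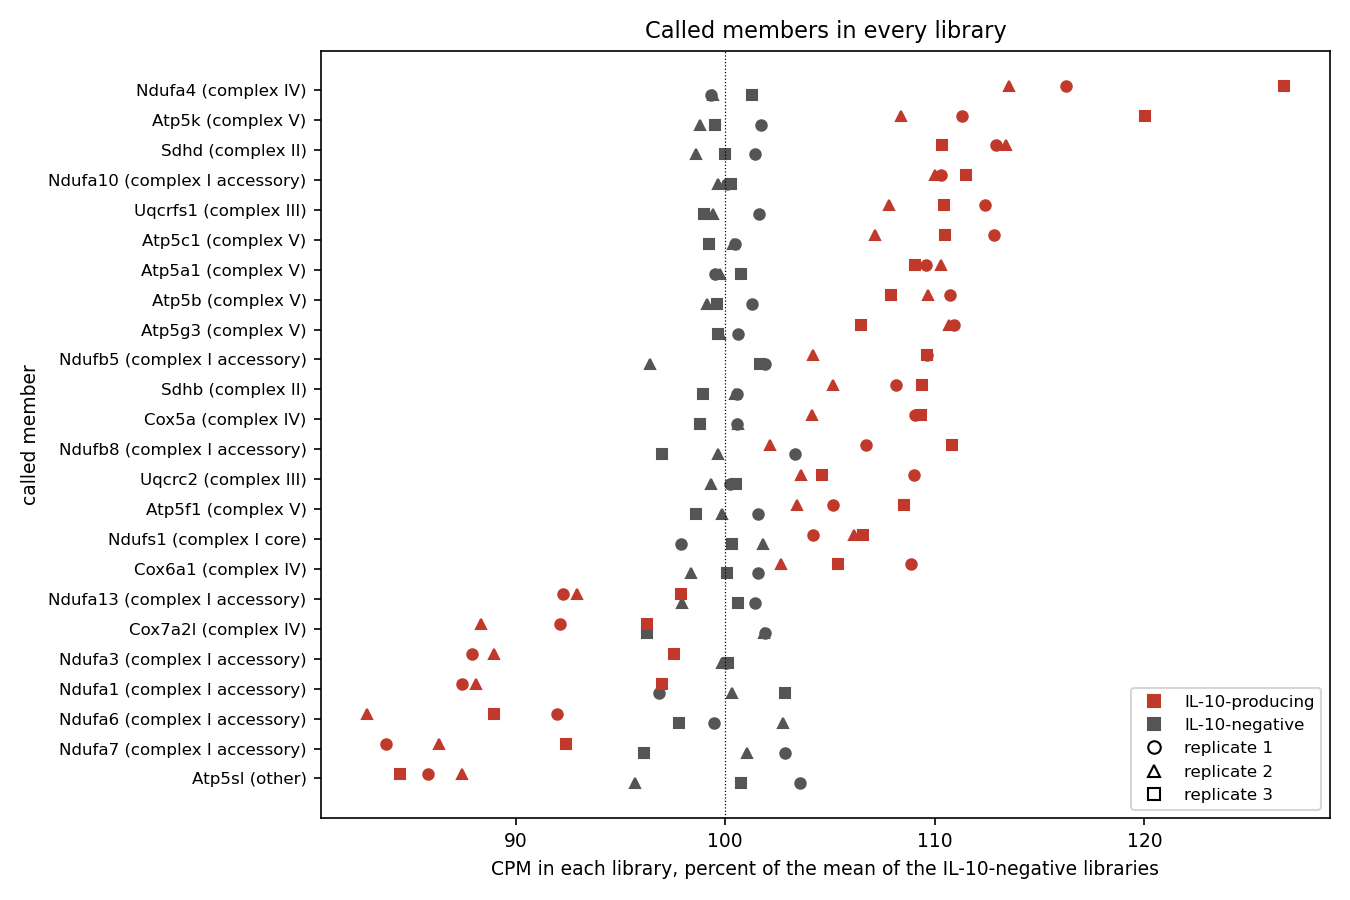
CPM of 24 changed members in every library, as a percentage of the mean of the IL-10-negative libraries (horizontal axis, 100 marks that mean; red, IL-10-producing; grey, IL-10-negative; symbols are replicates), ordered by fold change. Red points of Ndufa4, Atp5b, Atp5a1 and Sdhd lie to the right of every grey point, those of Cox7a2l and Ndufa1 touch or overlap the grey points, and Cox6a2, with few counts, is left out.

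Complex II, succinate dehydrogenase, is also an enzyme of the citric acid cycle and is encoded only in the nucleus. Its summed CPM was 463, 464 and 457 in IL-10-producing and 438, 435 and 438 in IL-10-negative libraries, with no overlap. The rise was seen in Sdhb and Sdhd. Sdhd (chromosome 9, 50596357 to 50603812), a membrane anchor and the gene whose promoter is shown above, stood at 98.1, 98.5 and 95.9 against 88.1, 85.7 and 86.9 CPM, 1.12-fold higher (log2 fold change 0.17, SE 0.0269, edgeR adjusted p = 1.81e-05). Sdhb (chromosome 4, 140961203 to 140979193), the iron-sulfur subunit, stood at 112, 109 and 113 against 104, 104 and 102 CPM (log2 fold change 0.10, SE 0.0258, edgeR adjusted p = 0.00223). Sdha, the flavoprotein that oxidises succinate, was 174, 178 and 172 against 169, 167 and 170 CPM. Its libraries did not overlap, yet the difference did not pass the test (log2 fold change 0.05, edgeR adjusted p = 0.0828). Sdhc, the other membrane anchor, stood at 79.4, 79.1 and 75.9 against 77.0, 78.9 and 79.5 CPM, and the groups overlapped (log2 fold change -0.005, SE 0.0295).

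Complex III passes electrons from ubiquinol to cytochrome c. Of its 9 nuclear genes Uqcrfs1 and Uqcrc2 rose and none fell. Uqcrfs1 (chromosome 13, 30540308 to 30545362), the Rieske iron-sulfur protein, stood at 142, 136 and 139 CPM in the producing and 128, 125 and 125 CPM in the negative libraries, 1.10-fold higher with no overlap (log2 fold change 0.14, SE 0.0247, edgeR adjusted p = 6.02e-05). Uqcrc2, a core protein, stood at 119, 113 and 114 against 109, 108 and 110 CPM (log2 fold change 0.08, edgeR adjusted p = 0.0184). That call was lost in 5 of 16 alternative analyses, namely library size only, the GC and length correction with and without a replicate block, and the omission of producing replicate 1 or negative replicate 2 (largest adjusted p = 0.149). The haem protein cytochrome c1 (Cyc1, 78.8 ± 0.361 against 75.5 ± 0.108 CPM) and the other core protein Uqcrc1 (147 ± 1.68 against 142 ± 1.7 CPM) had groups that did not overlap and adjusted p-values of 0.0933 and 0.116 by edgeR. The small subunits Uqcrb, Uqcrh, Uqcrq and Uqcr11 lay between -0.05 and 0.03 on the log2 scale. Another small subunit, Uqcr10, stood at 73.3, 70.3 and 81.1 against 70.5, 68.7 and 71.5 CPM, with overlap, and its log2 fold change of 0.09 did not pass (edgeR adjusted p = 0.0775). Cytochrome c itself (Cycs) stood at 75.9, 72.3 and 75.3 against 71.8, 73.2 and 69.1 CPM. The groups overlapped, and the log2 fold change of 0.06 (SE 0.0315) did not pass (edgeR adjusted p = 0.146).

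Complex IV, cytochrome c oxidase, reduces oxygen, and several of its nuclear subunits exist as isoforms typical of certain tissues. Its members moved in both directions, with Ndufa4, Cox5a and Cox6a1 higher and Cox7a2l and Cox6a2 lower. Ndufa4 (chromosome 6, 11900292 to 11907497), named for complex I but now placed in complex IV, had the largest rise of all members. It stood at 141, 138 and 154 CPM in the producing and 121, 121 and 123 CPM in the negative libraries, 1.19-fold higher (log2 fold change 0.25, SE 0.0306, edgeR adjusted p = 3.96e-07). All producing libraries were above all negative ones, and producing replicate 3 was the highest. Its paralog Ndufa4l2, known for its induction under low oxygen, had 1 or 2 counts in each library and was not tested.

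Cox5a, a subunit of the mitochondrial matrix side, stood at 162, 155 and 162 against 149, 149 and 147 CPM (log2 fold change 0.10, edgeR adjusted p = 0.00139), and the call was lost with the GC and length correction (adjusted p up to 0.137). Cox6a1, the widely expressed isoform of subunit VIa whose promoter is shown above, stood at 175, 165 and 169 against 163, 158 and 161 CPM (log2 fold change 0.08, edgeR adjusted p = 0.0137), and lost its call in the same 5 alternatives as Uqcrc2 (largest adjusted p = 0.39). Cox6a2 is the isoform of heart and skeletal muscle. It had 4, 10 and 6 counts in IL-10-producing and 23, 20 and 30 counts in IL-10-negative libraries, which did not overlap (log2 fold change -1.88, SE 0.442, edgeR adjusted p = 0.00142). Its level, 0.116 against 0.44 CPM, is under 1% of that of Cox6a1. Which cells this RNA came from was not tested.

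Cox7a2l is known for a role in joining complexes III and IV into supercomplexes. Whether its product has that role in the C57BL/6J mice used here was not tested. Cox7a2l stood at 114, 109 and 119 CPM in the producing libraries and 126, 126 and 119 CPM in the negative ones. The lowest negative library and the highest producing library were at the same level, so the groups touched (log2 fold change -0.12, SE 0.0302, edgeR adjusted p = 0.00289). Its relatives did not pass. Cox7a2 stood at 69.7 ± 2.38 against 69.0 ± 0.231 CPM (log2 fold change 0.01), and the muscle isoform Cox7a1 had 15 to 27 counts per library. Cox4i1, the widely expressed subunit IV, stood at 211, 211 and 224 against 211, 204 and 208 CPM (log2 fold change 0.05, edgeR adjusted p = 0.093), and its lung and low-oxygen isoform Cox4i2 had 0 to 6 counts per library and was not tested. Cox6b1 stood at 101.5 ± 2.26 against 100.9 ± 1.48 CPM, with 5.81 ± 0.16 against 6.16 ± 0.595 CPM for its testis isoform Cox6b2. Cox8a stood at 136 ± 7.91 against 139 ± 2.36 CPM.

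Complex I is the largest of the complexes, with a core of conserved catalytic subunits surrounded by accessory ones. Its accessory subunits split, with 3 higher, 5 lower and 21 that did not pass, and their summed CPM was 1350, 1310 and 1371 against 1350, 1329 and 1337 with overlap of the groups. Ndufa10 (chromosome 1, 92439010 to 92473860), a subunit of the membrane arm related to nucleoside kinases, stood at 112, 112 and 113 against 102, 101 and 102 CPM (log2 fold change 0.15, SE 0.0248, edgeR adjusted p = 3.92e-05). Ndufb5 and Ndufb8, both of the membrane arm, rose 1.08-fold and 1.06-fold (edgeR adjusted p = 0.0224 and 0.0311). They lost their calls in 6 and 7 of 16 alternatives (largest adjusted p = 0.128 and 0.234), with library size only, with the GC and length correction, and without producing replicate 1, producing replicate 3 or negative replicate 2. Ndufb8 also lost its call without negative replicate 3.

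All falls in complex I were in accessory subunits. Ndufa7 (chromosome 17, 33824591 to 33838316) stood at 30.9, 31.8 and 34.1 CPM in the producing and 37.9, 37.2 and 35.4 CPM in the negative libraries, 1.144-fold lower with no overlap (log2 fold change -0.19, SE 0.0446, edgeR adjusted p = 0.00112). Ndufa6 (chromosome 15, 82350140 to 82354322), whose promoter is shown above, stood at 31.8, 28.7 and 30.8 against 34.4, 35.5 and 33.8 CPM (log2 fold change -0.19, edgeR adjusted p = 0.00178). Ndufa1 (34.2, 34.5 and 38.0 against 37.9, 39.3 and 40.3 CPM) and Ndufa3 (29.8, 30.1 and 33.0 against 33.9, 33.8 and 33.9 CPM) fell with adjusted p-values of 0.0133 and 0.0237 by edgeR. Ndufa13, also known as GRIM-19, fell from 82.3 ± 1.5 to 77.7 ± 2.52 CPM (edgeR adjusted p = 0.0305). Ndufa1, Ndufa3 and Ndufa13 lost their calls in 3, 5 and 5 alternatives, and among the libraries left out in turn, omitting producing replicate 1, producing replicate 2 or negative replicate 3 ended each of these 3 calls (largest adjusted p = 0.0846, 0.132 and 0.153). Omitting negative replicate 1 ended those of Ndufa3 and Ndufa13, and negative replicate 2 that of Ndufa3. Ndufa3 and Ndufa13 overlap other genes in the deposited table, as do Ndufb5, Ndufs1, Uqcrc2, Cox5a and Atp5f1 among the members that rose, and the use of strand is not given, so these counts are uncertain. Separately, 18 of the 25 changed members, Atp5a1, Atp5b and Atp5c1 among them, had estimated counts that were not whole in at least 1 library, so their counts depend on the authors' estimate.

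The 7 core subunits hold the iron-sulfur clusters and the site where NADH is oxidised. Of these, Ndufs1 alone passed the test, at 84.5, 86.1 and 86.5 against 79.4, 82.6 and 81.4 CPM (log2 fold change 0.08, edgeR adjusted p = 0.031), and the call was lost in 5 alternatives, among them library size only and the omission of producing replicate 2 or 3 or of negative replicate 1 or 3. Ndufv1, which binds NADH, stood at 81.1 ± 2.05 against 78.9 ± 1.1 CPM and did not pass. The summed core was 415, 415 and 422 against 399, 410 and 405 CPM, with no overlap. None of the 7 assembly factors passed. The largest difference among them was that of Ndufaf2 (8.72, 9.31 and 9.35 against 8.30, 8.62 and 6.70 CPM, log2 fold change 0.21, edgeR adjusted p = 0.0617). Of the genes outside the complexes, Atp5sl, now known as a factor of complex I assembly (Dmac2), fell from 22.6, 20.9 and 22.0 to 18.7, 19.1 and 18.4 CPM with no overlap (log2 fold change -0.22, SE 0.052, edgeR adjusted p = 0.0017). Atp5s stood at 3.27 ± 0.455 against 2.79 ± 0.416 CPM and did not pass.

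Levels of different genes were compared per kilobase of the shortest principal transcript. Atp5b had the highest level, 549 CPM per kb in IL-10-producing and 502 in IL-10-negative cells, followed by Ndufa4 (319), Cox6a1 (297) and Cox4i1 (289) in the former and by Cox6a1 (281), Cox4i1 (278) and Ndufa4 (269) in the latter. The place of Ndufa4 depends on the transcript chosen, since per kb of the longest transcript it stood at 237 and 199, below Cox6a1 (297 and 281), Cox4i1 (281 and 271) and several others, while Atp5b stayed highest. Cox4i2, Ndufa4l2, Cox6a2 and Cox7a1 were all under 1 CPM per kb in both groups. Length and GC content were taken from the longest principal transcript of each member. Members that rose had a median length of 1166 bases and a median GC content of 49.4%. Those that fell had 635 bases and 53.2%, and those that did not pass 891.5 bases and 50.6%. Over the 89 tested members Spearman's rho of the log2 fold change was 0.20 with length and -0.18 with GC content, as a description over genes of the same libraries.

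Of the calls, 9 of 17 rises and 5 of 8 falls were kept in all 16 alternatives that tested the gene. The rises were those of Atp5a1, Atp5b, Atp5c1, Atp5g3, Ndufa4, Ndufa10, Sdhb, Sdhd and Uqcrfs1, and the falls those of Ndufa6, Ndufa7, Cox7a2l, Atp5sl and Cox6a2. Cox6a2 was not tested where at least 50 counts were asked for, nor in the authors' normalized table.

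**Figure D4:**
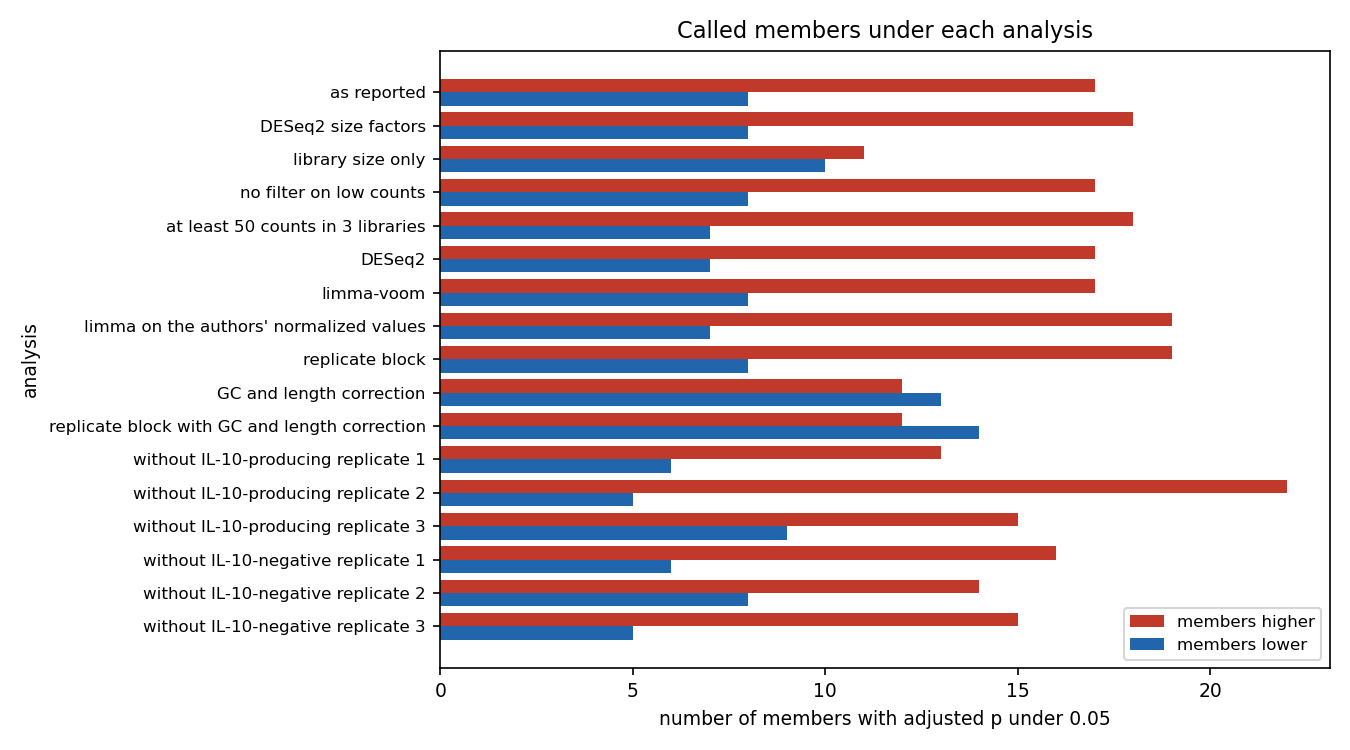
Number of members with an adjusted p under 0.05 (horizontal axis; red, higher; blue, lower) in the analysis as reported and in 16 alternatives (vertical axis). The bars run from 11 to 22 members higher and from 5 to 14 lower, and lower calls outnumber higher ones only in the 2 analyses with the GC and length correction.

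The mitochondrial DNA encodes the remaining subunits, and of these 13 subunits 4 rose and 4 fell (61.5% changed, beside 35.7% of all tested genes). Among all tested genes with a mean of at least 20 CPM, 28.9% rose and 22.8% fell. The summed CPM of the 13 subunits was 9729 ± 287 against 10040 ± 306 (SD, n = 3). The 3 with the smallest p were mt-Atp8, a membrane subunit of ATP synthase (48.4, 50.8 and 59.9 against 32.2, 39.9 and 32.1 CPM, edgeR adjusted p = 8.06e-08), mt-Co1, the catalytic subunit of complex IV, which fell (3644, 3416 and 3471 against 3837, 3933 and 3736 CPM, log2 fold change -0.13), and mt-Nd1 of complex I, which rose (815 ± 23.8 against 743 ± 28.4 CPM). Reading frames of mitochondrial transcripts lie side by side or overlap, and short ones share reads, so their values are uncertain.

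The genes that build or regulate the chain were taken from lists. Of 42 tested assembly factors outside the name rule, 3 rose and 3 fell (14.3% changed, beside 35.7% of all tested genes). The rises included Sco1 and Cox11, which deliver copper to complex IV, at 39.2 ± 0.75 against 34.0 ± 0.433 CPM and 15.4 ± 0.356 against 12.2 ± 0.858 CPM (edgeR adjusted p = 1.3e-04 and 1.38e-04), and Cox18, which inserts a complex IV subunit into the membrane, at 17.9 ± 0.189 against 15.7 ± 0.143 CPM. Of 11 tested genes of coenzyme Q synthesis and handling, 1 rose and 1 fell (18.2%). Pdss1 rose (7.93 ± 0.173 against 6.61 ± 0.514 CPM) and Coq10a, which binds coenzyme Q, fell (10.3 ± 0.313 against 12.9 ± 0.425 CPM). Of 15 tested regulators of respiratory gene transcription, 2 rose and none fell (13.3% changed). Hcfc1, a cofactor of promoter-bound regulators, stood at 514, 514 and 503 against 454, 452 and 467 CPM (log2 fold change 0.16, edgeR adjusted p = 2.64e-07), and Tfam, which packages and transcribes mitochondrial DNA, at 54.7, 51.6 and 53.5 against 49.0, 48.3 and 49.6 CPM (edgeR adjusted p = 0.00805). Nrf1 (62.1 ± 3.03 against 59.3 ± 1.06 CPM), Gabpa (77.5 ± 2.19 against 75.4 ± 0.51 CPM), and Yy1 (175 ± 2.62 against 181 ± 1.96 CPM, with all producing libraries below all negative ones, edgeR adjusted p = 0.107), the factors of the motifs above, did not pass. Gabpa overlaps Atp5j at a shared start region.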

How the data were processed

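RNA was sequenced from 6 libraries, 3 per group. The submitters' processing notes name STAR 2.5.3a, Partek, bcl2fastq 2.17.1.14 and build mm10. The authors deposited gene-level estimated counts without normalization (50.4% of values not whole), and a normalized signal table of 13824 genes, in which every value was the estimated count plus 1 times a factor per library. Annotation release, strand use and transcript selection are not given in the sources used here. Values were not whole (tolerance 0.05) in 58 of the 91 members, and 26 overlapped another gene.

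Estimated counts were rounded and tested with edgeR 4.0.16 (R 4.3.3), quasi-likelihood F test, TMM, group as the only term, filterByExpr (minimum count 10, minimum total 15), Benjamini-Hochberg over 16654 genes, threshold 0.05. SE is the log2 fold change over the root of F. Transcript lengths and GC content came from GENCODE M21. Sequences and motif windows came from RefSeq (GRCm38.p6).

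Members and lists were chosen with earlier results of these data known. Named were all members of groups of 4 or fewer, the 3 largest changes per direction in other groups at 5 CPM or more, changes of at least 0.5 on the log2 scale, isoform sets, the 3 highest levels per kb and, per pathway list, the 3 smallest p-values. Other changed members were named after their values were seen. Some members that did not pass were also described outside this rule, among them Atp5d, Atp5e, Cyc1, Uqcrc1, Uqcr10, Ndufv1 and Ndufaf2. Nrf1, Gabpa and Yy1 were described as the factors of the motifs. These additions were not followed gene by gene in the alternative analyses. Members not named enter the counts, medians and sums only.

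The alternative analyses were scaling by library size only or by size factors from DESeq2, a filter of at least 50 counts in 3 libraries or none, the DESeq2 1.42.0 test, voom with limma 3.58.1, limma on the authors' normalized signal values (log2 after adding 1), a block for the replicate number, a GC and length correction (mgcv 1.9.3), both together, and leaving out each library. Libraries of the same group varied 2.39 to 2.96 times as much as Poisson counting would give, so none was a copy.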

Additional observations from a re-analysis of the deposited data

How the results depend on the processing

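Members at 20 CPM or more had a median SE of 0.032 on the log2 scale, beside a median absolute log2 fold change of 0.0604 over all tested members, and Cox6a2, Cox7a1, Cox4i2 and Ndufa4l2 had at most 30 counts per library. No named member that had passed the test changed its direction. With library size only, the all-gene median (log2) moved from -0.004 to -0.03, 36.8% of changed genes were higher against 47.8%, 11 members were higher, and 0 core and 1 accessory complex I member and 1 complex III member were higher. Medians were then -0.0304 for accessory complex I, 0.0471 for complex II and 0.0173 for complex III. Asking for at least 50 counts, or using the authors' normalized values, left 1 complex IV member lower, since Cox6a2 was not tested. With the GC and length correction, 13 members were lower; accessory complex I and complexes III and IV had 1 higher each, complex III and complex V 1 lower each, and complex IV 4 lower. Medians were -0.0411 (accessory complex I), 0.0105 (complex III), 0.0155 (cytochrome c) and -0.0353 (complex IV). The replicate block alone gave 19 members higher and 8 lower. With the replicate block and the GC and length correction together, 14 members were lower, with 1 higher in each of accessory complex I, III and IV, 1 lower in each of III and V, and 4 lower in IV, and medians of -0.0419, 0.0112, 0.0151 and -0.0352 in the same order. Same-numbered libraries did not deviate alike from the means of their groups (correlations from -0.048 to -0.023). With 3 libraries per group and no origin in the labels, this cannot show whether they share mice or cultures. Leaving out each library in turn gave 13 to 22 members higher and 5 to 9 lower. The ranges were 0 to 1 higher for the complex I core, 1 to 5 higher and 2 to 6 lower for its accessory subunits, 0 to 1 higher and 0 to 1 lower for its assembly factors (median 0.0287 to 0.1213), 1 to 3 higher for complex III and 2 to 5 higher for complex IV. Complex V kept 6 higher each time. The cause of these changes was not tested.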

Other observations

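Processed pseudogenes share names with members without being protein-coding, and 5 of them have rows in the deposited table. Ndufab1-ps had the highest level, 3.70 ± 0.289 CPM where IL-10 was produced, against 3.50 ± 0.657 CPM (SD, n = 3), and did not pass edgeR's test (adjusted p = 0.715). The other pseudogenes, Atp5k-ps2, Atp5l-ps1, Atp5l2-ps and Uqcrh-ps1, stayed under 1 CPM in every library, and none of those tested passed. Atp5k-ps2 stood at 0.74 ± 0.032 against 0.727 ± 0.184 CPM (log2 fold change 0.02, SE 0.274). That SE includes a difference as large as the rise of its parent gene Atp5k, so these data do not show that the pseudogene and its parent differ.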
